A study of Homo sapiens with 12 samples.

Results

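The DNA damage repair genes described here are 35 genes of homologous recombination, double-strand break processing, the Fanconi anemia pathway, checkpoint kinases, base excision repair and the repair of crosslinked protein. They form a list of symbols drawn up with earlier results of these data known, were matched by symbol among the 46639 of the deposited RNA-seq table, and all passed the filter on low values. MOLM-13, an established acute myeloid leukemia cell line with an MLL-AF9 fusion, was left untreated or received 100 nM decitabine (DAC), 1 µM all-trans retinoic acid (ATRA) or both drugs (DAC + ATRA, the dual treatment). All groups were grown with GM-CSF and hold 3 libraries each. The libraries are technical triplicates of a single cell line, so p-values measure only the spread within 1 experiment. Untreated libraries carry a label of 96 h and treated ones of 72 h, whereas the study's methods give a harvest at 72 h. Which of these holds is not known, and if the labels hold, the difference cannot be told apart from treatment. ATRA was present for less time in the study's methods than in its labels. There was no vehicle control among the libraries.

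Decitabine is incorporated into DNA as a cytosine analog and traps the DNA methyltransferase DNMT1 on it as a covalent DNA-protein crosslink, which depletes the enzyme and lowers DNA methylation. Such crosslinks are taken apart by proteases such as SPRTN, and the lesions left behind can be handled by base excision repair, by the Fanconi anemia pathway at blocked replication forks and by homologous recombination, which copies the intact sister chromatid. ATRA binds retinoic acid receptors and drives myeloid cells towards differentiation and out of the cell cycle. Many genes of homologous recombination and of the Fanconi anemia pathway are transcribed mostly in S and G2 phase, when a sister chromatid is at hand.

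Depth ranged from 8.95 to 11.9 M recovered reads per untreated library (M for mega), from 4.67 to 6.95 M for DAC, from 8.36 to 10.7 M for ATRA and from 5.61 to 7.16 M for DAC + ATRA, so both groups with DAC were shallower. All 9 myeloid marker genes checked were measured, and their summed level was 51137 to 63189 normalised counts in untreated libraries, 167655 to 211821 under DAC, 15381 to 20981 under ATRA and 59273 to 62257 under the dual treatment. These sums hide opposite moves. In each comparison with untreated, 5 of the 9 had a positive log2 fold change and 4 a negative one. With ATRA their median was 0.02, LYZ changing by -2.65 and ITGAM by 2.52. With DAC and DAC + ATRA the medians were 0.17 and 0.27. A normalised count is a read count divided by the size factor of its library. Markers of erythroid cells summed to at most 2.04 normalised counts in any library, with 3 of 5 at 0 throughout, those of T and B cells to at most 42.3 and 39.8, and those of epithelial cells to at most 72.5, with CDH1 at 0 throughout. Of 4 fibroblast markers 3 were at 0 in every library, and the fourth, COL1A1, averaged 8.03 ± 2.93 without treatment, 21.2 ± 3.13 under DAC, 79.0 ± 12.5 under ATRA and 48.6 ± 9.50 under the dual treatment. Values are read as comparisons of 1 gene between libraries, because reads that fit several transcripts of a gene appear to have been left out by the counting and levels are then lower limits. GENCODE 44 places another coding gene on the same strand over 6 members (CHEK1, UNG, XRCC1, FANCG, RAD50 and RAD51D) and on the opposite strand over 17, among them BRCA2, FANCI, NBN, CHEK1, XRCC1 and SPRTN, so that reads of such pairs could mix.

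ATRA lowered 12 of the 35 repair genes and raised 1, whereas DAC changed none past the threshold (limma, adjusted p under 0.01 over 10642 protein-coding genes tested). The genes lowered by ATRA lay in every branch but the crosslink protease and were led by BRCA2, 3.91-fold lower, FANCE, 2.61-fold lower, BLM, 2.36-fold lower, and BRIP1, 2.33-fold lower. The single gene raised was ATR, by 1.90-fold. The dual treatment lowered 5 of the 35 genes, namely BRCA2, BRIP1, XRCC1, BLM and FANCE, and raised ATR and NBN. The share called was 37.1% of the repair genes with ATRA against 26.0% of all genes tested, and 20.0% with DAC + ATRA against 28.9%. For genes called lower the shares were 34.3% against 14.0% with ATRA and 14.3% against 14.4% with the dual treatment, and for genes called higher 2.86% against 12.1% and 5.71% against 14.5%. Treated and untreated libraries did not overlap in 7 repair genes with DAC (20.0%, against 30.4% of all genes tested), 22 with ATRA (62.9% against 50.7%) and 18 with DAC + ATRA (51.4% against 55.8%). The median log2 fold change of the 35 genes was -0.58 with ATRA, -0.12 with DAC + ATRA and 0.16 with DAC, beside medians of -0.04, -0.004 and -0.004 over all genes tested. These numbers rested in part on single libraries. Without untreated replicate 2 the ATRA number was 7 in place of 13, the calls of BARD1, EXO1, FANCI, CHEK1, XRCC1 and UNG being lost. Without ATRA replicate 3 it was 8, the first 5 of these being lost. Among all genes tested, 2130 and 2180 were then called with ATRA in place of 2772. With untreated replicate 2 left out, the share of repair genes called was thus close to that of all genes tested. Over all alternatives the adjusted p with ATRA ran up to 0.045 for CHEK1, 0.036 for EXO1, 0.028 for XRCC1, 0.017 for FANCI and 0.014 for UNG. Without untreated replicate 3 the dual treatment gave 4 calls in place of 7, with ATR, NBN and XRCC1 lost. Among all genes tested, 2607 were then called in place of 3077.

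**Figure D1:**
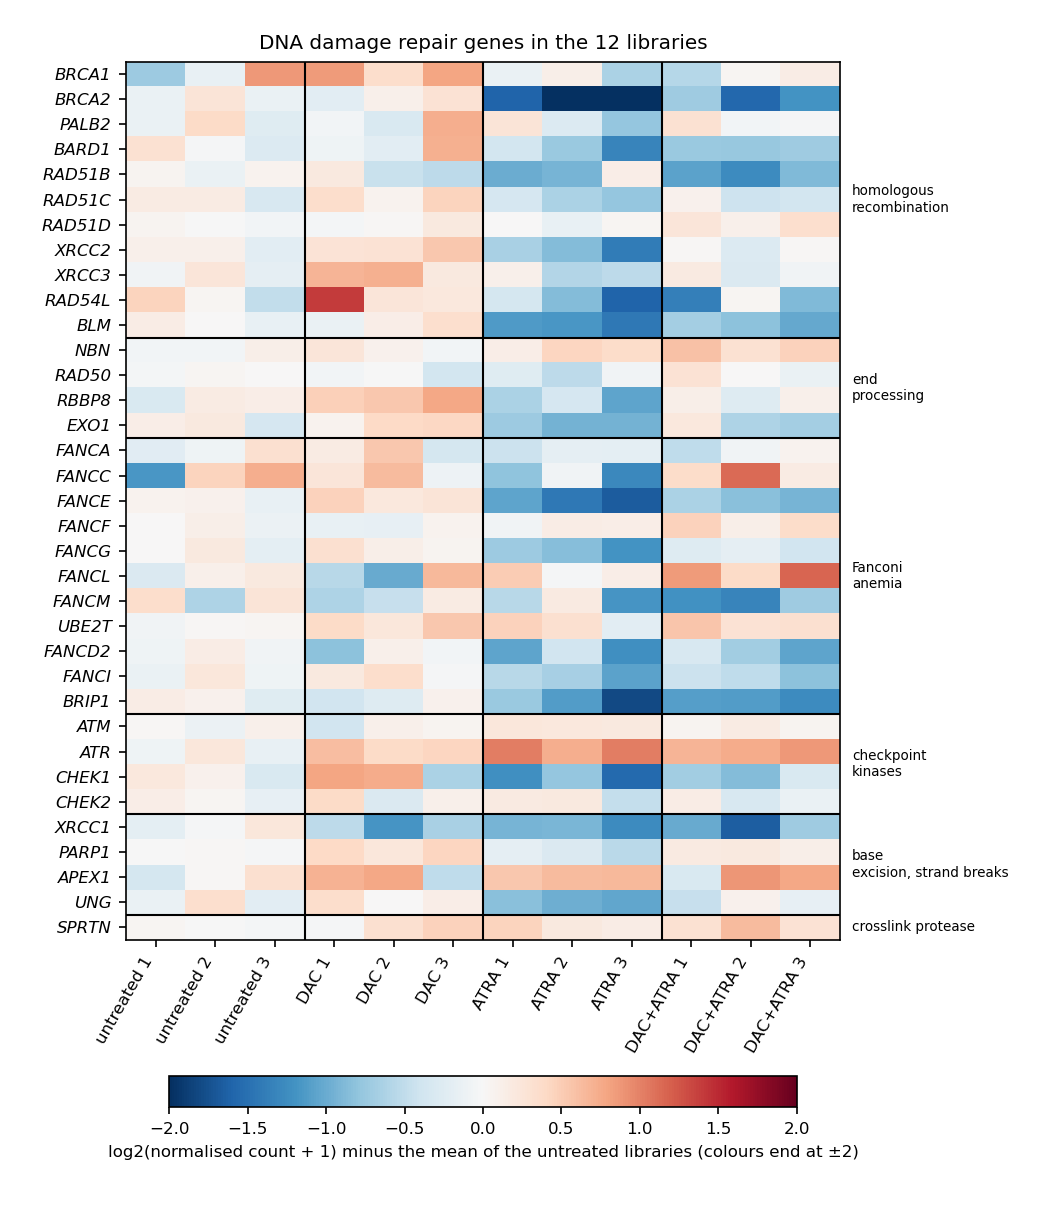
Level of each repair gene (rows, grouped by role) in each of the 12 libraries (columns), as log2(normalised count + 1) minus the mean of the 3 untreated libraries. The darkest blue cells are those of BRCA2 in ATRA replicates 2 and 3, and the ATR row is red in all 9 treated libraries.

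In the 3 ATRA libraries the median of the 35 genes lay 0.37, 0.39 and 0.78 below the mean of the untreated libraries on the log2 scale, the lowest of all libraries being ATRA replicate 3. In the dual treatment it lay between -0.18 and 0.02, and in DAC libraries between 0.11 and 0.20. Genes of proliferation moved with this order. Of 20 such genes, ATRA lowered 17 and raised MCM7, DAC + ATRA lowered 7, and DAC raised PCNA, the sliding clamp of replication. Their summed level was 21546 to 23077 normalised counts without treatment, 25870 to 28183 under DAC, 8990 to 12736 under ATRA and 15327 to 17729 under the dual treatment, with ATRA replicate 3 again the lowest. The part of proliferation in the levels of the repair genes was not tested, and in bulk RNA fewer cells in S and G2 phase cannot be told apart from less RNA per cell.

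Promoter sequences are shown for 5 members, because repair genes that are transcribed with replication often carry binding sites of E2F factors, which switch on S-phase genes. RefSeq promoters of build GRCh38.p14 were found for 33 of the 35 members, all but NBN and FANCI. Each stretch runs 5′ to 3′ on the strand of the gene from 250 bases before to 30 bases after the RefSeq start site, which can differ from the gene ends of GENCODE, and an E2F-type word stands in capitals where one occurs. XRCC2 and EXO1 were called lower with ATRA and hold a word, BLM and FANCE were called lower and hold none, and ATR was called higher and holds none. Only full words were counted, and BLM, FANCE and ATR each hold a stretch that differs from a word in a single letter.
XRCC2 (chr7:152676112-152676391, strand -): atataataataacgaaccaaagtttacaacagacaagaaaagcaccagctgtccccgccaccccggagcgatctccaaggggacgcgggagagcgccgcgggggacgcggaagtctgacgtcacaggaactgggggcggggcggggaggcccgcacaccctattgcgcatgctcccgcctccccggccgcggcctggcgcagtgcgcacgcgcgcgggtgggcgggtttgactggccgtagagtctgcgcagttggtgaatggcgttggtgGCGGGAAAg
EXO1 (chr1:241847954-241848233, strand +): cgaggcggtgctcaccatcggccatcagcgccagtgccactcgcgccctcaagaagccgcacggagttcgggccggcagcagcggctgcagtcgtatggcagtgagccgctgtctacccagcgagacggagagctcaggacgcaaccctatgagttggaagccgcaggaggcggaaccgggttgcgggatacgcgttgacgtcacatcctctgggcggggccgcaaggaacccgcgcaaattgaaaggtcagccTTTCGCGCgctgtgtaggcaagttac
BLM (chr15:90717096-90717375, strand +): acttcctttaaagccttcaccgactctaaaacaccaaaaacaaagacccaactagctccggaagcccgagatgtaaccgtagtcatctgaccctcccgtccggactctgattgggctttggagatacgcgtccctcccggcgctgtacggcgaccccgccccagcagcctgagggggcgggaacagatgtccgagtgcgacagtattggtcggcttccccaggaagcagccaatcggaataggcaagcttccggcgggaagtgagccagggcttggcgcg
FANCE (chr6:35452088-35452367, strand +): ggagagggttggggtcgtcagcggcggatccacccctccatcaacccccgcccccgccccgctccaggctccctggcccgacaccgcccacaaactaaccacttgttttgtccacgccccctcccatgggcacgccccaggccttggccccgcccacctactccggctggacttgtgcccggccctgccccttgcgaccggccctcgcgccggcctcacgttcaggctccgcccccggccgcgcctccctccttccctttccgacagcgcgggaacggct
ATR (chr3:142578704-142578983, strand -): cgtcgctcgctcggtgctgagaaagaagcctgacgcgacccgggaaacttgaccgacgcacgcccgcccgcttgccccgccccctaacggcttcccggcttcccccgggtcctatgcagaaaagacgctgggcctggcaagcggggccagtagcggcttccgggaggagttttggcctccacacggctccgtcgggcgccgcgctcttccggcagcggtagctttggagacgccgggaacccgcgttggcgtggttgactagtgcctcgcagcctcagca

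The words searched on both strands were TTTCCCGC, TTTCGCGC, TTTGCCGC and TTTGGCGC, over 250 bases before to 50 bases after the start site. A word occurred in 5 of the 33 member promoters (15.2%), those of XRCC2, EXO1, FANCA, FANCC and FANCD2, in 4.47% of 15130 protein-coding promoters and in 62.5% of 16 promoters of proliferation genes. XRCC2 held GCGGGAAA, the reverse complement of a searched word, from base 22 after the start site, counting the start as 1, and EXO1 held TTTCGCGC from base 5. Among the members called lower with ATRA, 2 of 11 promoters held such a word, and among the others 3 of 22. The box CCAAT occurred in 45.5% of member promoters against 36.6% of all promoters, and the letters AGGTCA, the core of the sites bound by retinoic acid receptors, in 9.09% against 11.5%. These are matches of letters and not mapped binding sites.

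Among the 11 genes of homologous recombination, ATRA lowered 4, DAC + ATRA lowered 2 and none rose in either comparison. The share lowered was 36.4% with ATRA beside 14.0% of all genes tested, and 18.2% with DAC + ATRA beside 14.4%. All 11 log2 fold changes with ATRA were negative, with a median of -0.60. BRCA2, a central mediator of homologous recombination, lies at chr13:32315086-32400268 (GENCODE 44, GRCh38). It was measured at 179.6, 235 and 178 normalised counts without treatment, 169, 210.1 and 241 under DAC, 63.6, 46.1 and 41.0 under ATRA, and 119, 65.3 and 84.7 under the dual treatment. Untreated and DAC libraries overlapped, and every library with ATRA lay below every library without it. The log2 fold change was -1.97 ± 0.23 (SE, adjusted p = 1.0e-06) with ATRA and -1.16 ± 0.23 (adjusted p = 0.00039) with the dual treatment. With DAC alone it was 0.06 ± 0.23, with a 95% interval from -0.41 to 0.53.

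BLM, the helicase that dissolves recombination intermediates, lies at chr15:90717346-90816166. Its levels were 499, 449 and 403 normalised counts without treatment, 408, 491 and 566 under DAC, 204, 199 and 166 under ATRA, and 280.0, 253 and 221 under the dual treatment. The ATRA libraries lay lowest, the dual treatment next, and both were clear of the groups without ATRA. BLM fell by 1.24 ± 0.15 on the log2 scale with ATRA (adjusted p = 1.7e-06) and by 0.84 ± 0.15 with the dual treatment (adjusted p = 0.00015).

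XRCC2, a homologous recombination factor whose promoter word is shown above, was at 473, 477 and 384 normalised counts without treatment, 533, 541 and 642 under DAC, 280.4, 242 and 167 under ATRA, and 448, 367 and 450.3 under the dual treatment. Only the ATRA libraries lay below the untreated ones without overlap. The change with ATRA was -0.97 ± 0.17 (adjusted p = 0.00011), that with the dual treatment -0.07 ± 0.17 (adjusted p = 0.75). BARD1, the partner of BRCA1 in its ubiquitin ligase, had 394, 314 and 264 normalised counts without treatment, 301, 278 and 521 under DAC, 247, 191 and 128 under ATRA, and 190.4, 189 and 195 under the dual treatment. Its log2 fold change with ATRA was -0.81 ± 0.23 with an adjusted p of 0.0096, and without ATRA replicate 3 it was -0.55 with an adjusted p of 0.08. The dual treatment averaged 192 ± 3.12 normalised counts, near the 189 ± 59.7 of ATRA. Its libraries also lay below all untreated ones, but the change passed no threshold against untreated.

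The recombination factors RAD51B, RAD51C, RAD51D and XRCC3, the partner PALB2 of BRCA2, the motor protein RAD54L and BRCA1 passed the threshold in none of the 6 comparisons. RAD51C averaged 152 ± 27.0 (SD, n = 3) normalised counts without treatment and 101 ± 16.5 in ATRA libraries, without overlap (log2 fold change -0.58 ± 0.19, adjusted p = 0.023). BRCA1 is listed with few reads, at 6.22 to 20.7 normalised counts over the 12 libraries and spread over 10 transcript rows, and no change of it was detectable at these read counts.

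**Figure D2:**
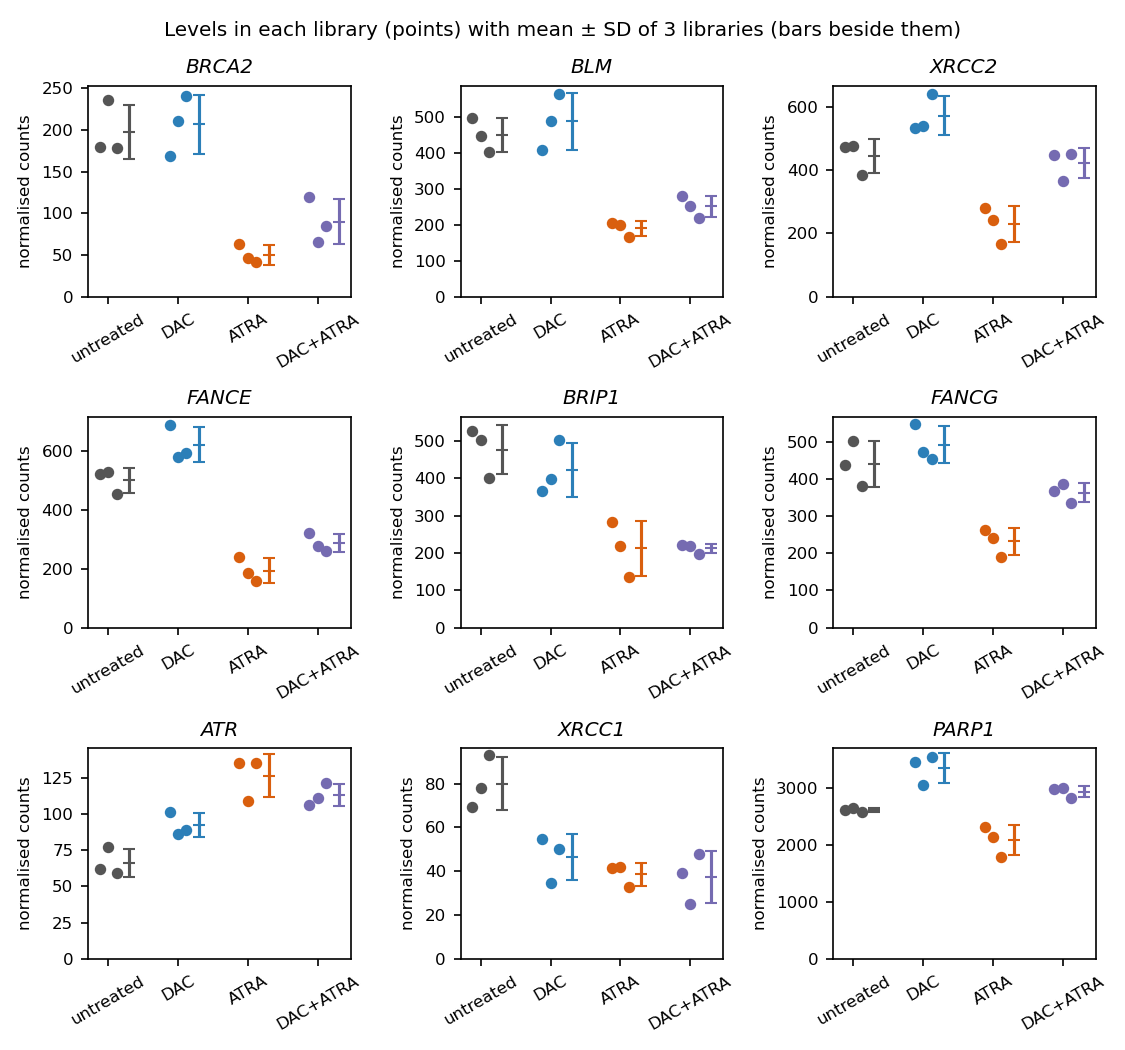
Normalised counts (vertical axes, from 0) of 9 repair genes in each library of the 4 groups, with mean ± SD of 3 libraries beside the points. BRCA2, BLM, FANCE and BRIP1 are lower in both groups with ATRA, XRCC2 and FANCG lie between their ATRA and untreated means in the dual treatment, and ATR is higher in both groups with ATRA.

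Of the 4 genes that process broken ends, EXO1 was lowered by ATRA and NBN was raised by DAC + ATRA. Each call is 25% of so short a list. Of all genes tested, 14.0% were lower with ATRA and 14.5% higher with DAC + ATRA. EXO1, a nuclease that resects 5′ strands, was at 117, 122 and 83.4 normalised counts without treatment, 111, 139.6 and 141.5 under DAC, 63.6, 54.3 and 54.3 under ATRA, and 123, 68.7 and 65.3 under the dual treatment. Among the dual libraries, replicate 1 lay at the untreated level and the other two near the ATRA libraries. The change with ATRA was -0.87 ± 0.23 (adjusted p = 0.0059). NBN, the signalling subunit of the MRE11-RAD50-NBN complex, averaged 297 ± 20.3 normalised counts without treatment and 407 ± 41.0 under the dual treatment, a log2 fold change of 0.45 ± 0.13 with an adjusted p of 0.0099. This call was lost in 15 of 26 alternative fits. RAD50, the ATPase of that complex, ranged from 85.6 to 151 normalised counts and passed no test. RBBP8, which starts resection together with that complex, averaged 83.5 ± 14.4 without treatment, 126 ± 13.7 under DAC, 52.5 ± 13.1 under ATRA and 82.4 ± 11.9 under the dual treatment, with log2 fold changes of 0.60 ± 0.22 for DAC (adjusted p = 0.069) and -0.67 ± 0.22 for ATRA (adjusted p = 0.020).

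Of the 11 Fanconi anemia genes, ATRA lowered FANCE, BRIP1, FANCG and FANCI, DAC + ATRA lowered FANCE and BRIP1, and none was called higher. The share lowered was 36.4% with ATRA beside 14.0% of all genes tested, and 18.2% with DAC + ATRA beside 14.4%. The pathway senses crosslinked DNA at forks, attaches ubiquitin to FANCD2 and FANCI through a core complex and the enzyme UBE2T, and passes the lesion on to nucleases and recombination. FANCE, the core subunit that contacts FANCD2, lies at chr6:35452338-35467104. It was at 523, 529 and 453 normalised counts without treatment, 689, 582 and 595 under DAC, 239, 186 and 157 under ATRA, and 321, 279 and 261 under the dual treatment. The 4 groups did not overlap each other, in the order DAC, untreated, DAC + ATRA, ATRA from high to low. FANCE fell by 1.38 ± 0.15 on the log2 scale with ATRA (adjusted p = 4.5e-07) and by 0.80 ± 0.15 with the dual treatment (adjusted p = 0.00025), and its change with DAC was 0.31 ± 0.15 (adjusted p = 0.18).

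BRIP1, a helicase that binds BRCA1, lies at chr17:61679139-61863559 and was measured at 527, 503 and 401 normalised counts without treatment, 365, 398 and 503 under DAC, 284, 218 and 135 under ATRA, and 221, 218 and 198 under the dual treatment. Both groups with ATRA were clear of both groups without it and overlapped each other. The log2 fold changes were -1.22 ± 0.20 with ATRA (adjusted p = 8.9e-05) and -1.16 ± 0.20 with the dual treatment (adjusted p = 0.00015). FANCG, a core subunit, averaged 441 ± 61.3 normalised counts without treatment, 493 ± 50.1 under DAC, 232 ± 37.7 under ATRA and 364 ± 25.9 under the dual treatment, and its change with ATRA was -0.93 ± 0.14 (adjusted p = 4.1e-05). FANCI, the partner of FANCD2, averaged 232 ± 33.6, 262 ± 33.7, 137 ± 24.6 and 154 ± 21.5 in the same order of groups. It fell by 0.76 ± 0.17 with ATRA (adjusted p = 0.0017). With DAC + ATRA its log2 fold change was -0.59 ± 0.17 with an adjusted p of 0.0104, just short of the threshold, and 12 of 26 alternative fits called it.

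FANCD2 itself averaged 77.5 ± 7.40 normalised counts without treatment and 42.7 ± 14.1 in ATRA libraries (log2 fold change -0.89 ± 0.28, adjusted p = 0.017). UBE2T averaged 551 ± 22.7 without treatment, 720 ± 77.3 under DAC and 726 ± 75.0 under the dual treatment, with adjusted p of 0.090 and 0.040, neither past the threshold. FANCF, which joins the parts of the core complex, ranged from 340.3 to 521 normalised counts and FANCA from 78.4 to 163, and neither was called in any comparison. FANCC, FANCL and FANCM were near the lower limit of the filter, with levels from 4.18 to 31.7 normalised counts over the 12 libraries, and were not called either.

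**Figure D3:**
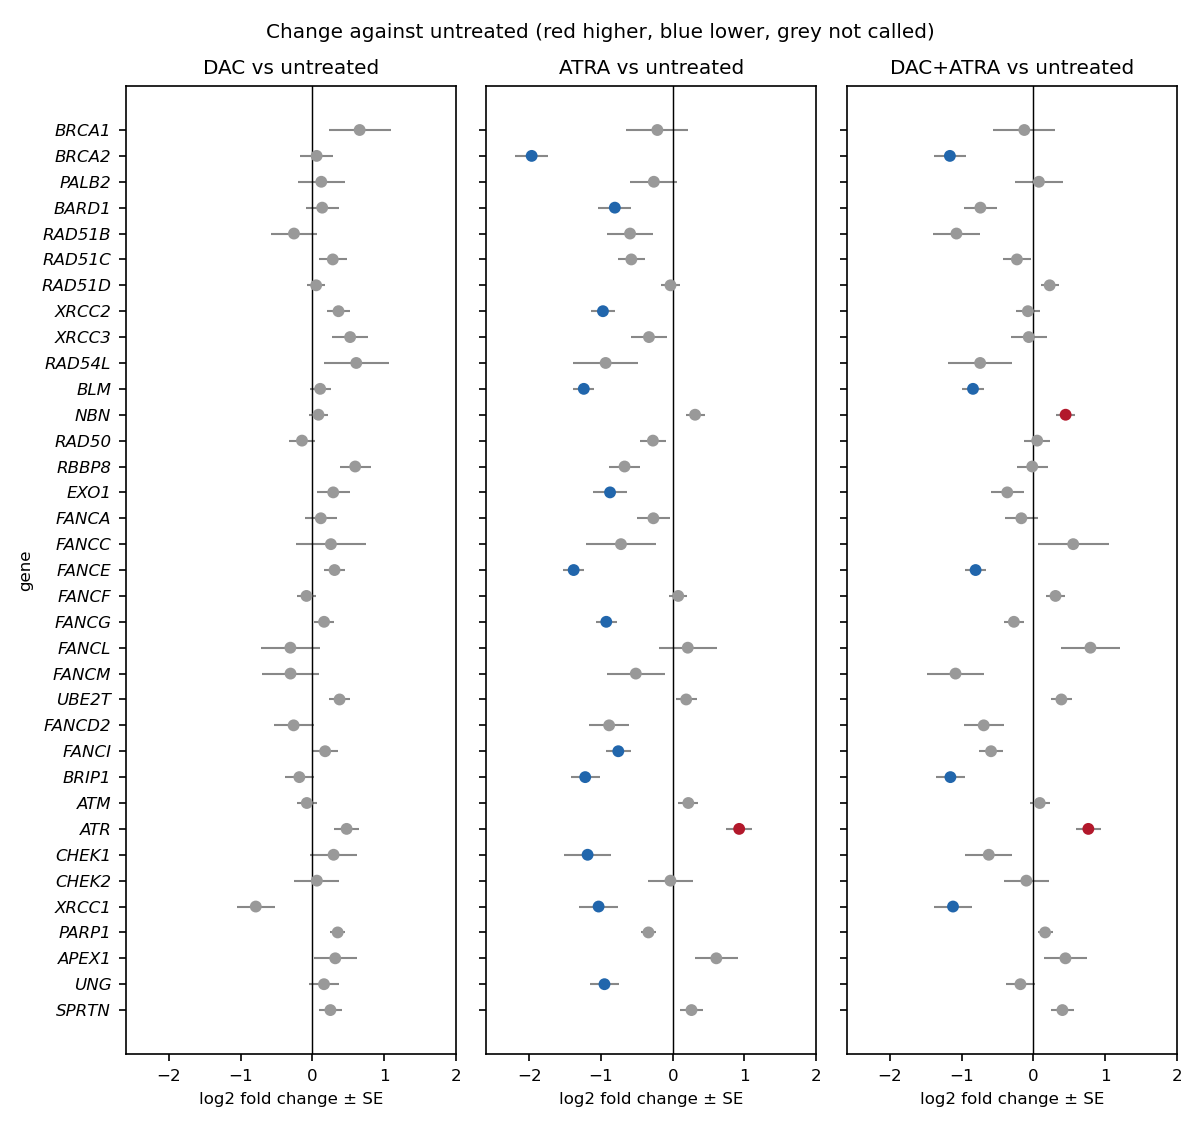
Log2 fold change against untreated (horizontal axes) with its standard error (lines) for each repair gene under DAC, ATRA and DAC + ATRA; blue and red points passed the threshold and grey ones did not. The DAC panel is grey throughout, the ATRA panel holds 12 blue points and 1 red point, and the DAC + ATRA panel 5 and 2.

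Of the 4 checkpoint kinases, ATR rose with ATRA and with DAC + ATRA and CHEK1 fell with ATRA. In this short list the share called was 50% with ATRA beside 26.0% of all genes tested, and 25% with DAC + ATRA beside 28.9%. ATR, which answers to single-stranded DNA at stalled forks, lies at chr3:142449007-142578733 and was measured at 62.2, 77.1 and 59.6 normalised counts without treatment, 102, 86.3 and 89.3 under DAC, 135, 109 and 135 under ATRA, and 106, 111 and 122 under the dual treatment. All 9 treated libraries lay above the 3 untreated ones. Its log2 fold change was 0.93 ± 0.18 with ATRA (adjusted p = 0.00035), 0.77 ± 0.18 with DAC + ATRA (adjusted p = 0.0018) and 0.48 ± 0.18 with DAC (adjusted p = 0.076). CHEK1, the kinase that ATR activates, was at 79.3, 73.1 and 55.2 normalised counts without treatment, 119.6, 114 and 43.5 under DAC, 28.7, 39.4 and 22.6 under ATRA, and 42.0, 37.1 and 55.1 under the dual treatment. DAC replicate 3 stood apart from the other DAC libraries for this gene. Its correlations with DAC replicates 1 and 2 (0.967 and 0.968) were also the lowest between libraries of the same group. CHEK1 fell by 1.19 ± 0.33 with ATRA (adjusted p = 0.0075), and the adjusted p was 0.045 without ATRA replicate 3 and 0.036 without untreated replicate 1. ATM, the kinase of double-strand breaks, ranged from 197 to 301 normalised counts and its target CHEK2 from 15.0 to 28.0, with no call in any comparison.

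Among the 4 genes of base excision and single-strand break repair, XRCC1 and UNG were lowered by ATRA. They are 50% of this short list, beside 14.0% of all genes tested. With DAC + ATRA the share lowered was 25%, beside 14.4%. XRCC1, the scaffold of single-strand break repair, lies at chr19:43543311-43580473 and was measured at 69.2, 77.9 and 92.8 normalised counts without treatment, 54.7, 34.5 and 50.1 under DAC, 41.2, 41.7 and 32.6 under ATRA, and 39.2, 24.8 and 48.0 under the dual treatment. Every treated library lay below every untreated one. Its log2 fold changes were -1.03 ± 0.27 with ATRA (adjusted p = 0.0047), -1.12 ± 0.27 with the dual treatment (adjusted p = 0.0024) and -0.79 ± 0.27 with DAC (adjusted p = 0.053).

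PARP1, the sensor of DNA strand breaks, was measured at 2620, 2656 and 2589 normalised counts without treatment, 3468, 3058 and 3547 under DAC, 2320, 2136 and 1796 under ATRA, and 2980, 3010 and 2832 under the dual treatment. No treated group overlapped the untreated libraries, DAC and the dual treatment lying above them and ATRA below them. No change against untreated passed the threshold, with log2 fold changes of 0.35 ± 0.10 for DAC (adjusted p = 0.025), -0.34 ± 0.10 for ATRA (adjusted p = 0.015) and 0.17 ± 0.10 for DAC + ATRA (adjusted p = 0.22). UNG, the glycosylase that removes uracil, was at 82.4, 114 and 78.4 normalised counts without treatment, 116, 91.0 and 99.1 under DAC, 50.2, 45.4 and 43.5 under ATRA, and 65.8, 95.7 and 80.7 under the dual treatment, and fell by 0.95 ± 0.21 with ATRA (adjusted p = 0.0012). APEX1, the endonuclease that cuts at abasic sites, was uneven within groups, with 296, 315 and 128 in DAC libraries, and was not called.

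SPRTN, the protease that degrades protein crosslinked to DNA at replication forks, lies at chr1:231337104-231355023. It was at 167, 162 and 157 normalised counts without treatment, 159, 202 and 224 under DAC, 220.4, 185 and 179.7 under ATRA, and 200.2, 251 and 198 under the dual treatment. The libraries with ATRA all lay above the untreated ones, and those with DAC alone overlapped them. Its log2 fold changes were 0.25 ± 0.16 with DAC (adjusted p = 0.32), 0.26 ± 0.16 with ATRA (adjusted p = 0.22) and 0.41 ± 0.16 with the dual treatment (adjusted p = 0.048), none past the threshold.

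With DAC alone, 0 of the 35 genes were called by limma, beside 7.97% of all genes tested (4.29% higher and 3.67% lower). At an unadjusted p under 0.05 there were 7 of 35, namely XRCC2, XRCC3, RBBP8, UBE2T, ATR, PARP1 and, as the only lower one, XRCC1, beside 28.7% of all genes tested. DESeq2 called PARP1 (adjusted p = 0.0094), and edgeR called none. The 95% interval of the DAC change lay within 2-fold in either direction for 27 genes and crossed it for the other 8, which were BRCA1, XRCC3, RAD54L, RBBP8, FANCC, FANCL, FANCM and XRCC1. The sign was positive in 26 genes and negative in 9.

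The next comparison asked what each drug added to the other. Against DAC alone, the dual treatment lowered 6 of 35 genes and raised none, which is 17.1% beside 18.8% of all genes tested (9.74% lower and 9.04% higher). The libraries of both groups did not overlap in 18 repair genes, 51.4% against 39.6% of all genes tested. The 6 genes were BRCA2 (log2 fold change -1.22 ± 0.23, adjusted p = 0.00037), FANCE (-1.11 ± 0.15, adjusted p = 1.0e-05), BRIP1 (-0.97 ± 0.20, adjusted p = 0.0012), BLM (-0.95 ± 0.15, adjusted p = 6.1e-05), BARD1 (-0.88 ± 0.23, adjusted p = 0.0074) and FANCI (-0.77 ± 0.17, adjusted p = 0.0022). BARD1 was not called without DAC replicate 3 (adjusted p = 0.034), the library in which it stood at 521 normalised counts. Of the 20 proliferation genes, 9 were lower and 1 higher in this comparison, with a median log2 fold change of -0.70, and their part in the result was not tested.

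Against ATRA alone, the dual treatment raised 4 of 35 genes and lowered none, which is 11.4% beside 11.9% of all genes tested. XRCC2 rose by 0.90 ± 0.17 on the log2 scale (adjusted p = 0.00064), FANCG by 0.66 ± 0.14 (adjusted p = 0.0028), FANCE by 0.58 ± 0.15 (adjusted p = 0.0088) and PARP1 by 0.50 ± 0.10 (adjusted p = 0.0017). The FANCE call was lost in 15 of 26 alternative fits. Over all genes tested 6.47% were higher and 5.46% lower. The libraries of both groups did not overlap in 12 repair genes, 34.3% against 39.9% of all genes tested. The sign was positive in 28 of 35 genes. The number called was 1 without ATRA replicate 3, in which XRCC2 alone was called, and 2 without DAC + ATRA replicate 1 or replicate 2. Among all genes tested, the numbers in these 3 fits were 850, 901 and 819 in place of 1270. Proliferation genes moved the same way in this comparison, with 10 of 20 higher and none lower, and their part in the result was not tested.

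Whether both drugs together differed from the sum of their single changes was tested as an interaction on the log2 scale. None of the 35 genes was called by limma, edgeR or DESeq2, beside 1.60% of all genes tested. At an unadjusted p under 0.05 there were 4 of 35, no more than the share of all genes tested, which was 14.8%. Their values were 0.74 ± 0.32 for BRCA2, 0.53 ± 0.23 for XRCC2, 0.49 ± 0.20 for FANCG and -0.64 ± 0.25 for ATR, all at adjusted p of 0.21 to 0.28. The standard errors of the interaction ran up to 0.70 for FANCC, so differences of this size were not detectable at these read counts for the low genes.

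Several members are listed as more than 1 transcript, and the rows of a gene are given side by side, with no test of the difference between them. UNG is made as a nuclear and a mitochondrial enzyme from 2 starts. The row of 313 residues, the nuclear form, averaged 64.2 ± 19.0 normalised counts without treatment, 81.6 ± 6.25 under DAC, 27.0 ± 7.23 under ATRA and 58.1 ± 4.33 under the dual treatment. It fell by 1.21 with ATRA (adjusted p = 0.00081 over 15040 rows) and was 1.11 higher with the dual treatment than with ATRA (adjusted p = 0.0041). The row of 304 residues, the mitochondrial form, averaged 27.6 ± 3.69, 20.4 ± 6.66, 19.4 ± 7.84 and 22.7 ± 11.7, with a log2 fold change of -0.57 with ATRA (adjusted p = 0.35).

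In FANCI, the row of 1328 residues averaged 162 ± 15.4 without treatment and 93.5 ± 27.1 in ATRA libraries, and the row of 252 residues 66.9 ± 23.7 and 39.7 ± 2.64, with log2 fold changes of -0.82 (adjusted p = 0.0047) and -0.68 (adjusted p = 0.046). FANCD2 had a row of 1451 residues at 18.7 ± 2.83 without treatment and 4.35 ± 2.88 under the dual treatment, a log2 fold change of -2.04 (adjusted p = 0.0036), while the sum over its rows changed by -0.69 (adjusted p = 0.056). This low row made up 17.8% of the FANCD2 level, and rows of 241 and 1471 residues made up 50% and 29.8%. For ATM, 84.1% of the level came from a row of 168 residues and 14.6% from a row of 3056 residues that GENCODE 44 types as subject to nonsense-mediated decay, so its level is mostly that of the short row. The row of 3056 residues averaged 31.0 ± 7.87 without treatment and 51.5 ± 6.77 in ATRA libraries (log2 fold change 0.74, adjusted p = 0.087). Both SPRTN rows, of 489 and 250 residues, stayed short of the threshold in each comparison with untreated.

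**Figure D4:**
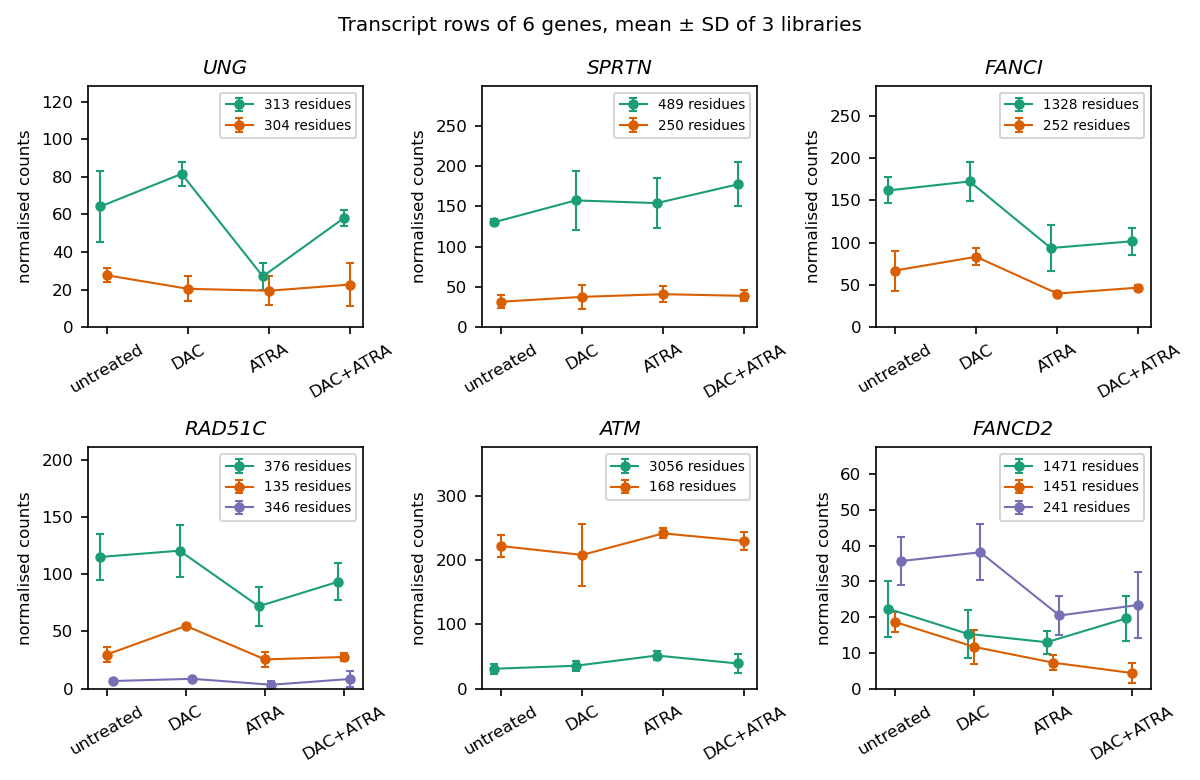
Mean ± SD of 3 libraries in normalised counts (vertical axes, from 0) for the transcript rows of UNG, SPRTN, FANCI, RAD51C, ATM and FANCD2 in the 4 groups, each row named by the length of its protein in residues. The long UNG row falls to 27.0 with ATRA and stands at 58.1 in the dual treatment. The short one averages 27.6 without treatment and 19.4 with ATRA, and the difference between both rows was not tested.

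A further 109 repair genes outside the member list were tested in 9 lists. DAC raised 4 of them and lowered none, ATRA raised 5 and lowered 15, and DAC + ATRA raised 8 and lowered 11. The dual treatment raised 3 and lowered 6 against DAC, raised 8 and lowered 3 against ATRA, and no interaction was called. Against untreated the shares called were 3.67%, 18.3% and 17.4%, and the median log2 fold changes 0.03, -0.14 and -0.03. Those shares lay below the 7.97%, 26.0% and 28.9% of all genes tested. Against DAC and against ATRA the shares of the dual treatment were 8.26% and 10.1%, beside 18.8% and 11.9%. Among 24 other homologous recombination genes, the share called was 16.7% with ATRA, 12.5% with DAC + ATRA and 4.17% against DAC. For all genes tested these shares were 26.0%, 28.9% and 18.8%. ATRA lowered 3 of the 24 and raised 1, the largest changes being in RPA3, a subunit of the single-strand binding protein (-1.13 ± 0.22), RAD54B (-1.03 ± 0.19) and RMI1, a partner of BLM (-0.92 ± 0.20). In the dual treatment 3 of these 24 were lower and none higher, with RPA3 at -1.39 ± 0.22, MRE11, the nuclease of the RAD50 complex, at -0.59 ± 0.15 and ABRAXAS1, a scaffold of the BRCA1-A complex, at -0.58 ± 0.11. ABRAXAS1 was higher with ATRA alone (0.44 ± 0.11, adjusted p = 0.0027), so its direction turned between the groups with ATRA, and the dual treatment lay 1.02 ± 0.11 below ATRA alone (adjusted p = 1.1e-06). Against DAC alone 1 of the 24 was lower, RPA3 at -1.10 ± 0.22.

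Of 12 other Fanconi anemia genes, ATRA lowered 1, the deubiquitinase USP1 (-0.61 ± 0.14), and the dual treatment lowered 1, its partner WDR48 (-0.46 ± 0.13). Each is 8.33% of the list, beside 26.0% and 28.9% of all genes tested. Of 17 other checkpoint genes, ATRA lowered 5 and raised none, with CDC25A, the phosphatase that CHEK1 restrains, at -1.32 ± 0.36, CLSPN, the adaptor between ATR and CHEK1, at -1.16 ± 0.18 and RAD1, a part of the checkpoint clamp, at -0.94 ± 0.17. DAC + ATRA raised RAD9A, another part of that clamp (0.81 ± 0.16), and lowered RAD1 (-0.66 ± 0.17). Against ATRA alone the dual treatment raised 3 of the 17, CLSPN by 1.28 ± 0.18, TIMELESS by 1.14 ± 0.25 and H2AX by 0.69 ± 0.13. The shares of the 17 called were 29.4% with ATRA, 11.8% with DAC + ATRA and 17.6% against ATRA. For all genes tested they were 26.0%, 28.9% and 11.9%, with 14.0% lower under ATRA and 6.47% higher against ATRA.

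Among 17 other base excision genes, DAC raised 1, the ligase LIG3 (0.48 ± 0.10). ATRA lowered 3 and raised 1, the largest changes being in the glycosylase NEIL3 (-1.42 ± 0.12), the flap nuclease FEN1 (-1.01 ± 0.15) and the gap-filling polymerase POLB (0.92 ± 0.12). DAC + ATRA lowered NEIL3 (-1.30 ± 0.12) and LIG1 (-0.61 ± 0.18) and raised LIG3 (0.42 ± 0.10). Against DAC it raised SMUG1 (0.81 ± 0.20) and lowered NEIL3 (-1.66 ± 0.12) and FEN1 (-0.60 ± 0.15), and against ATRA it raised FEN1 (1.00 ± 0.15) and lowered POLB (-0.93 ± 0.12). The shares called were 5.88% with DAC, 23.5% with ATRA and 17.6% with DAC + ATRA, beside 7.97%, 26.0% and 28.9% of all genes tested. Against DAC and against ATRA they were 17.6% and 11.8%, beside 18.8% and 11.9%.

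Of 9 end joining genes, ATRA raised 2 and lowered 1, namely PAXX, which steadies the Ku complex at ends (1.69 ± 0.16), the nuclease DCLRE1C (0.79 ± 0.14) and, as the lower one, the kinase PRKDC (-0.79 ± 0.15). DAC + ATRA raised PAXX (1.88 ± 0.16) and DCLRE1C (0.68 ± 0.14), both also against DAC (1.35 ± 0.16 and 0.87 ± 0.14), and against ATRA it raised PRKDC (0.77 ± 0.15). The shares called were 33.3% with ATRA and 22.2% with DAC + ATRA, beside 26.0% and 28.9% of all genes tested. Against DAC and against ATRA they were 22.2% and 11.1%, beside 18.8% and 11.9%. None of 5 mismatch repair genes was called in any comparison. Of 12 nucleotide excision genes, XPC, the damage sensor, was raised by DAC (0.61 ± 0.10), ATRA (0.46 ± 0.10) and DAC + ATRA (0.56 ± 0.10), and DDB2, which hands damage to XPC, was lowered by ATRA (-1.05 ± 0.14) and DAC + ATRA (-0.57 ± 0.14), as was ERCC6 by DAC + ATRA (-0.45 ± 0.12). Against DAC the dual treatment lowered DDB2 (-1.02 ± 0.14) and CETN2 (-0.63 ± 0.17), and against ATRA it lowered XPA (-0.57 ± 0.14). Of the 12 genes, 8.33% were called with DAC, 16.7% with ATRA and 25% with DAC + ATRA, beside 7.97%, 26.0% and 28.9% of all genes tested. Against DAC and against ATRA the shares were 16.7% and 8.33%, beside 18.8% and 11.9%.

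Among 6 translesion genes, the ligase RAD18 was lowered by ATRA (-0.79 ± 0.14) and DAC + ATRA (-0.77 ± 0.14), and the polymerase POLI by DAC + ATRA (-0.82 ± 0.23). RAD18 was also lower in the dual treatment than with DAC (-0.67 ± 0.14), and POLH was higher than with ATRA (0.54 ± 0.13). In this short list the share called was 16.7% with ATRA and 33.3% with DAC + ATRA, beside 26.0% and 28.9% of all genes tested. Of 7 other factors of DNA-protein crosslink repair, DAC raised 2 and lowered none. They were VCP, an unfolding ATPase that acts with SPRTN (0.46 ± 0.10, adjusted p = 0.0043), and NPLOC4, a cofactor of VCP (0.82 ± 0.12, adjusted p = 9.3e-05). DAC + ATRA raised both, NPLOC4 by 0.95 ± 0.12 and VCP by 0.62 ± 0.10, and also TDP2, which removes topoisomerase adducts (0.61 ± 0.16). Against ATRA alone the dual treatment raised NPLOC4 by 0.69 ± 0.12 and VCP by 0.45 ± 0.10, and ATRA alone changed none of the 7 past the threshold. The shares of the 7 called were 28.6% with DAC, 42.9% with DAC + ATRA and 28.6% against ATRA. For all genes tested they were 7.97%, 28.9% and 11.9%.

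**Figure D5:**
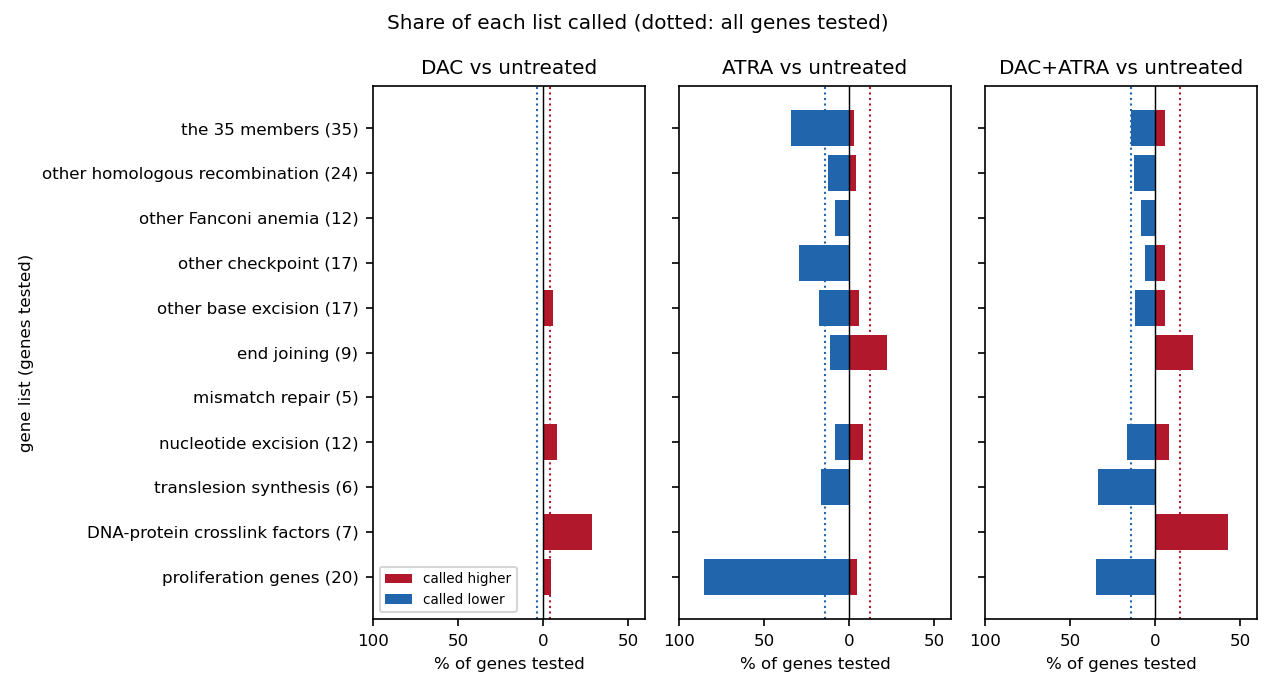
Share of each gene list called higher (red, to the right) or lower (blue, to the left) in percent of the genes tested, for DAC, ATRA and DAC + ATRA against untreated; dotted lines mark the share among all genes tested. The 35 members reach 34.3% lower with ATRA and 14.3% with the dual treatment, and the proliferation genes have the longest blue bar of the ATRA panel.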

How the data were processed

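RNA of 12 MOLM-13 libraries was measured, 3 per group. Per the labels and the study's methods, the authors depleted ribosomal RNA, sequenced paired-end libraries that keep strand, and used STAR (hg38), htseq-count and DESeq2. The strand setting of the counting and the annotation release are not given in the sources used here. The deposited values are a normalised signal, read counts divided by the size factor of each library, in 100502 transcript rows, and whole reads could be recovered from them. Size factors recomputed from these reads differed from those of the authors by at most 5.2e-08%. Rows were summed per symbol. Genes and coordinates came from GENCODE 44, which held 88.9% of the rows, and columns named CTRL were taken as untreated.

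The 10642 protein-coding symbols that reached 10 normalised counts in 3 or more libraries were tested. All 12 libraries entered a limma 3.58.1 fit in R 4.3.3 (lmFit, contrasts.fit, then eBayes with a trend) of log2(normalised count + 1) with no covariate. Changes of genes with low levels come out too small on that scale. Tests were two-sided, Benjamini-Hochberg adjustment ran over all genes of each of 6 comparisons, and calls needed an adjusted p below 0.01, as in the study's methods. Intervals are 95% and cover 1 gene at a time. The script was tested on simulated data. Alternatives were edgeR 4.0.16 and DESeq2 1.42.0 on the recovered reads, other scalings, pseudocounts, filters and thresholds, a replicate block, single transcript rows and leaving out each library. The members, gene lists and tests were chosen with earlier results of these data known. All members were named, with values per library for those called in at least 2 comparisons with untreated and for SPRTN, and from each list up to 3 called genes with the largest changes. Library values of XRCC2, BARD1, EXO1, CHEK1, PARP1, UNG and APEX1 were added after they had been seen.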

Additional observations from a re-analysis of the deposited data

How the results depend on the processing

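Of 30 member calls in the 6 comparisons, 16 were made in every one of 26 alternative fits and 14 were lost in at least 1. Of 180 results that were not called, 14 were called in at least 1 of these fits. All 26 fits kept the threshold of an adjusted p under 0.01. The changed thresholds of the next paragraph are not among them, and more calls were gained or lost there. No called member result turned its direction in any of them. The weakest calls were BARD1 with ATRA, NBN with DAC + ATRA and FANCE in DAC + ATRA against ATRA, each lost in 15 of 26 fits, the adjusted p running up to 0.08, 0.053 and 0.062. The causes of these changes were not tested.

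With DAC, the number of members called was 0, and 1 with DESeq2 or at an adjusted p under 0.05. With ATRA it was 13, and 6 when a change of over 2-fold was also required. With DAC + ATRA it was 7, against 11 in a fit of only the compared groups, 13 at an adjusted p under 0.05 and 3 with the 2-fold requirement. In DAC + ATRA against DAC it was 6, against 14 at an adjusted p under 0.05 and 2 with the 2-fold requirement. In DAC + ATRA against ATRA it was 4, against 7 and 0 in those settings. Shares over all genes tested are not given for an adjusted p under 0.05 or the 2-fold requirement. The member numbers there show only how far calls depend on the threshold. Leaving out 1 library at a time gave 0 for DAC, 7 to 14 for ATRA, 4 to 10 for DAC + ATRA (4 without untreated replicate 3), 4 to 7 against DAC and 1 to 6 against ATRA. Over all genes tested these numbers were 509 to 1385, 2130 to 3271, 2362 to 3641, 1461 to 2044 and 819 to 1778. The numbers 1385, 3271, 3641 and 1778 came without DAC replicate 3, as did the 14, 10, 7 and 6 members. Of the same genes, DESeq2 called 1205 with DAC in place of 848. The fit of only the compared groups called 3956 with DAC + ATRA in place of 3077.

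Replicate numbers did not pair the libraries: over 18 same-numbered pairs the correlation of deviations from the group means was -0.263 to 0.114, with a median of 0.00467 against 0.000736 for other pairs. With the replicate number as a block, 12 members were called with ATRA, 0 with DAC, 7 with DAC + ATRA, 5 against DAC, 4 against ATRA and 0 in the interaction. Over all genes tested these numbers were 2572, 742, 2832, 1834, 1141 and 140. Both groups with DAC were sequenced less deeply, which limits the low genes BRCA1, FANCC, FANCL, FANCM, CHEK2 and RAD54L.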
